A study of Mus musculus with 9 samples.

Results

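The comparison described here set CD47 KO clone E3 against wild-type (WT) cells of the mouse Lewis lung carcinoma line LLC, by RNA-seq of polyadenylated RNA. The members were all libraries that the labels assign to these lines, 3 of clone E3 and 3 of WT, together 6 of the 9 libraries sequenced. LLC cells stably expressing luciferase were the starting line, and both groups were grown in culture in DMEM with fetal bovine serum, with no other treatment named. The design text calls the WT cells clonal too. For clone E3, a ribonucleoprotein of Cas9 and a guide RNA against Cd47 was electroporated into these cells and a single edited cell was expanded. The 3 libraries of clone E5, a second line made with the same guide, entered the fit, and with it the filter, the scaling and the estimate of the spread. Otherwise they were used to ask where E3 differed from E5, and were tested against WT only to choose the genes flagged for a closer look. The replicates were independent biological replicates of each line, but E3 is 1 clone, so what belongs to the edit and what belongs to the clone cannot be told apart.

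CD47 is a membrane protein with an extracellular immunoglobulin-like domain, several membrane-spanning segments and a short cytoplasmic tail. On the surface of normal and tumour cells it binds SIRPα of macrophages, a contact that restrains phagocytosis, and it also serves as a receptor for thrombospondin 1. The study asked what CD47 does inside lung cancer cells, and the question taken up here is which functions stood higher and lower in the transcriptome of clone E3. Below, a single number in parentheses after a gene is its log2 fold change, E3 against WT, and every gene said to rise or fall has an adjusted p under 0.05. Values per library are in CPM, the counts scaled to a common library size by TMM, given for replicates 1, 2 and 3 in that order, and they follow the length of a transcript as well as its abundance, so levels are not compared between genes.

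The guide used for the edit is shown with the GRCm39 reference around its site, since it fixes where Cd47 was cut. Capitals mark the guide sequence, which is followed by the PAM CGG:
Cd47 guide site: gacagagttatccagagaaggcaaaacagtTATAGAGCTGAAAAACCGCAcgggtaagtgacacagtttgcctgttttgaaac
The guide matched the genome once, at chr16:49688453-49688472 on the plus strand. The usual cut position of Cas9 lies between bases 49688469 and 49688470, in the coding part of exon 2 of 11 of the canonical transcript, at codon 130 of 321 and just before the end of that exon at base 49688475. The printed sequence is the reference, and the alleles of clone E3 were not read here.

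Total counts were 49621282, 47756318 and 47574047 in the WT libraries and 48672040, 46747086 and 44257404 in the E3 libraries. Replicate 3 of E3 stood apart from the others. Between pairs of WT libraries, 0 to 5 genes differed by more than 2-fold, and between E3 replicates 1 and 2 the number was 31. Against E3 replicate 3 it was 642 for replicate 1 and 876 for replicate 2. In that library 22 genes lay more than 2-fold above the mean of the other E3 libraries and 684 lay more than 2-fold below it. The difference went with transcript length. Among genes with transcripts of at most 1000 bases, the library lay a median of 0.63 (log2) above the other E3 libraries, and among those over 8000 bases a median of -0.95 from them. Across 10926 genes, as a description only since genes are not independent, the Spearman correlation of the deviation with length was -0.73 for this library, against -0.23 to 0.26 for the WT libraries. Usp9x, a deubiquitinase with a long transcript, was at 112, 144 and 27.2 CPM in E3 replicates 1 to 3 and at 109, 114 and 115 CPM in WT. Huwe1, a ubiquitin ligase with a long transcript, was at 317, 421 and 92.6 CPM in E3 and 329, 330.5 and 336 CPM in WT. In both, replicate 3 lay below every other library. Rps14, a ribosomal protein gene with a short transcript, was at 752, 686 and 1435 CPM in E3 and 927, 728 and 652 CPM in WT. Rpl41, another such gene, was at 380.2, 390.4 and 814 CPM in E3 and 483, 385 and 346 CPM in WT. Here replicate 3 lay above every other library. These 4 genes were chosen as examples after their values were seen. Why this library deviated was not tested, and the main counts are given with and without it.

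**Figure D1:**
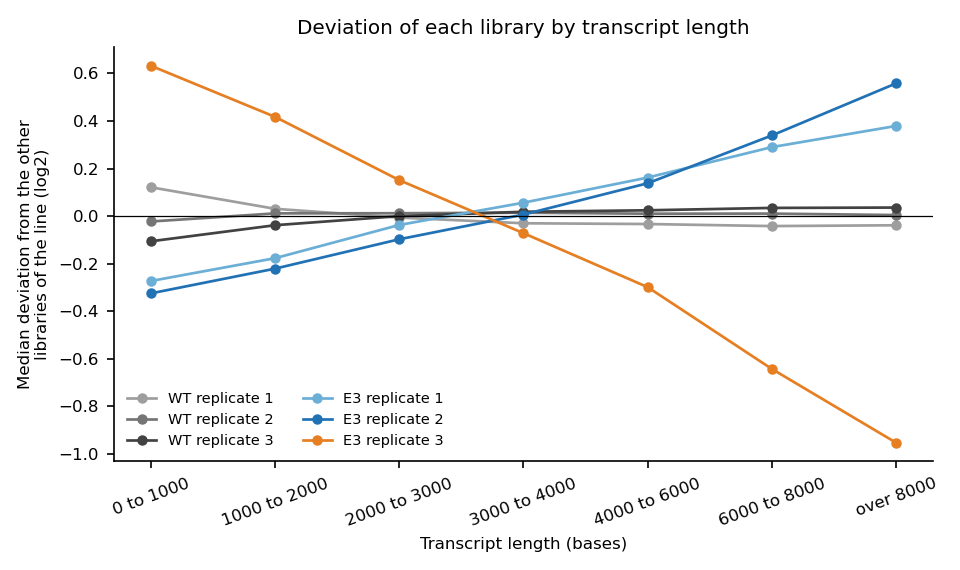
Median deviation of each WT and E3 library from the other libraries of its line (log2) in 7 classes of transcript length (bases). E3 replicate 3 runs from 0.63 in the shortest class to -0.95 in the longest, while the WT libraries stay within 0.12 of 0.

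Cd47 itself, which lies at chr16:49620896-49735373 in GRCm39, was the gene to check first. It was measured at 187, 179 and 182 CPM in WT replicates 1 to 3 and at 47.4, 36.7 and 49.6 CPM in E3 replicates 1 to 3. Every E3 library lay far below every WT library, and the transcript was still counted in each. The log2 fold change was -2.03 (standard error 0.13, adjusted p = 4.9e-06 by the quasi-likelihood test of edgeR, adjusted by Benjamini and Hochberg over all genes, as throughout) and -2.12 without E3 replicate 3. In clone E5 it was at 17.4 ± 1.66 CPM (SD, n = 3), and the difference of E3 from E5 was 1.36 on the log2 scale (adjusted p = 2.8e-05). In such bulk RNA, fewer cells with a transcript and less of it in each cell cannot be told apart, here and below. Of the partners of CD47, Thbs1, which encodes thrombospondin 1, rose from 46.7, 34.9 and 39.7 CPM in WT to 116, 107 and 69.7 CPM in E3 (log2 fold change 1.27, adjusted p = 0.00054). All E3 libraries lay above all WT libraries, with replicate 3 the nearest to them. Thbs3, a related thrombospondin, fell by 0.56 on the log2 scale (adjusted p = 0.00186). Qpct, a glutaminyl cyclase, rose from 5.27, 4.88 and 4.62 to 9.72, 8.35 and 11.9 CPM (log2 fold change 1.02, adjusted p = 0.00067). Enzymes of this family form the pyroglutamate of CD47 that SIRPα recognises, a role best established for its paralog Qpctl.

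At an adjusted p under 0.05, 2296 of 14593 genes tested were higher in E3 than in WT (15.7%) and 2149 were lower (14.7%). These shares are the background against which each list below is read, and a list is described by its counts and median without a test of the list. Differentially expressed genes (DEGs), with an absolute log2 fold change above 1 as well, numbered 792 higher (5.43%) and 641 lower (4.39%). Without E3 replicate 3, 3234 genes (21.8%) were higher and 3189 (21.5%) lower, while DEGs numbered 798 and 640. The common biological coefficient of variation between replicates was 14.8% with that library and 7.97% without it. Of the 1433 DEGs, 1381 were still at an adjusted p under 0.05 in the same direction without it, 1228 were still DEGs, and 0 changed direction. A further 2077 genes passed the adjusted p only without it. In 1418 of the DEGs every E3 library lay on one side of every WT library. Over all genes tested, every E3 library lay above every WT library in 22.4% and below every WT library in 23%. The DEG count was 1262 without WT replicate 2, and the count at an adjusted p under 0.05 was 2875 instead of 4445.

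**Figure D2:**
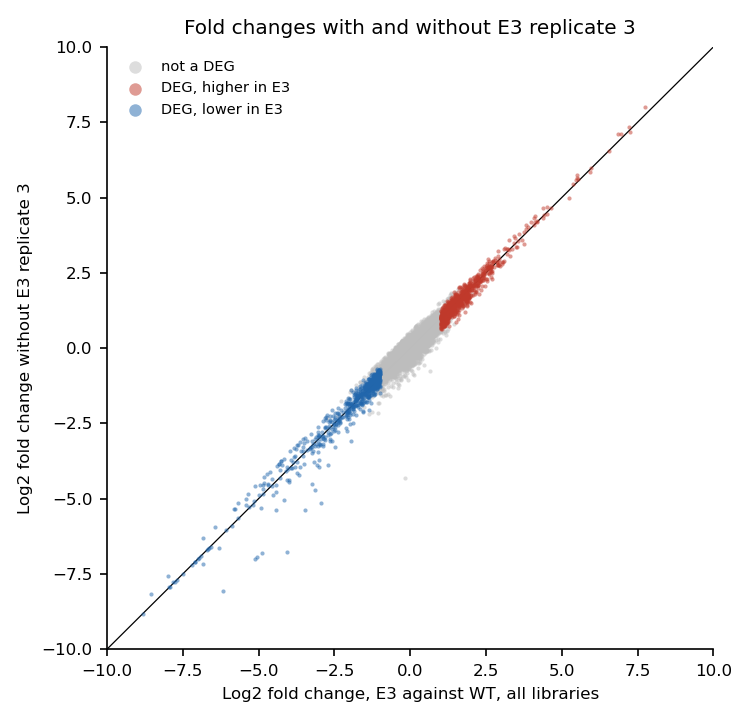
Log2 fold change of E3 against WT for each gene tested, with all libraries on the x axis and without E3 replicate 3 on the y axis. DEGs (coloured) lie along the line of equal values, and 0 of 1433 cross to the other sign.

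The genes with the largest differences, 12 in each direction by the naming rule, were mostly losses to under 1 CPM in E3 or gains from a few CPM or less in WT. Xist, the non-coding RNA that coats the inactive X chromosome, was at 231, 192 and 196 CPM in WT and at 0.440, 0.993 and 0.220 CPM in E3. Its log2 fold change of -8.54 (adjusted p = 1.5e-06) was the most negative of these, and clone E5 was at 237 ± 81.8 CPM (SD, n = 3). Slc7a3, a cationic amino acid transporter, went from 47.7, 47.3 and 45.6 to 0.980, 0.909 and 0.814 CPM (-5.70). Inpp5d, the phosphatase SHIP1, went from 22.2, 22.1 and 23.8 to 0.740, 0.782 and 0.594 CPM (-5.0). In each of these, no E3 library came near a WT library. Galnt3, which starts mucin-type O-glycans, fell from 17.5, 17.7 and 17.7 to 0.640, 0.401 and 0.418 CPM (-5.17). Soat2, which esterifies cholesterol, fell from 18.4, 16.5 and 15.8 to 0.700, 0.465 and 0.594 CPM (-4.84). Adm2, a peptide of the calcitonin family, fell from 10.1, 10.5 and 10.4 to 0.140, 0.0634 and 0.110 CPM (-6.59). Abcc3, Car6, Etl4, Scn9a and Loxl2 had log2 fold changes of -5.32, -6.07, -6.85, -5.80 and -4.87. Ly9 was at 10.9, 11.9 and 12.7 CPM in WT and at no more than 3 counts in any E3 library, so no fold is given for it. Etl4, Scn9a and Loxl2 were lower in E3 than in E5 (adjusted p = 9.5e-08, 9.7e-08 and 1.7e-08).

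Among the gains, Marcks, a substrate of protein kinase C that binds actin and the plasma membrane, went from 0.481, 0.316 and 0.253 CPM in WT to 21.7, 19.5 and 23 CPM in E3 (5.92, adjusted p = 1.8e-07). Akr1c14, an aldo-keto reductase, went from 0.781, 1.18 and 0.443 to 18, 11 and 14.6 CPM (4.18). Fhod3, a formin that assembles actin filaments, went from 0.321, 0.421 and 0.401 to 7.24, 8.01 and 4.40 CPM (4.10). All E3 libraries of these genes stood well above all WT libraries. B4galt6, a lactosylceramide synthase, rose from 0.821, 1.01 and 1.16 to 13.4, 15.7 and 10.9 CPM (3.74). Mme, the membrane peptidase neprilysin, rose from 0.861, 0.484 and 0.401 to 9.94, 6.30 and 5.15 CPM (3.6), which again left the lines apart. Bmf, a pro-apoptotic BH3-only protein, rose from 1.64, 1.41 and 1.27 to 14.6, 7.90 and 10.3 CPM (2.92). The other 6 of the 12 most positive genes lie on the X chromosome and are described with it below.

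**Figure D3:**
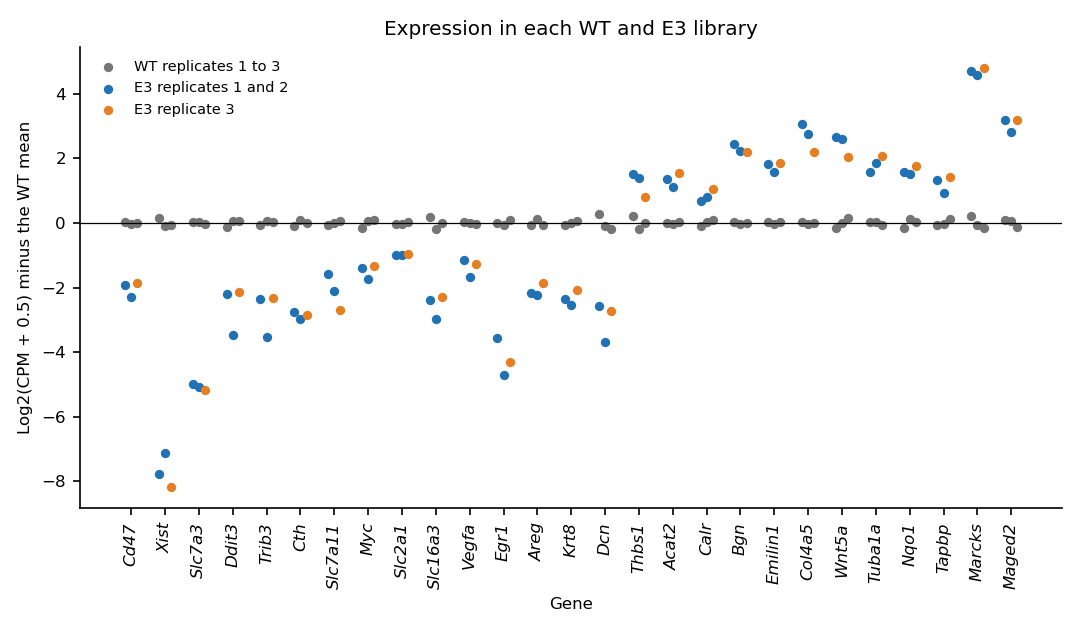
Log2 of CPM plus a pseudocount of 0.5, relative to the WT mean of the same quantity, for genes named in the text, with 1 point per library. WT libraries (grey) cluster at 0, and E3 replicates 1 and 2 (blue) and 3 (orange) lie together on one side of them for each gene drawn.

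Genes of the ATF4 programme fell together. In this integrated stress response, kinases that sense amino acid shortage or misfolded protein phosphorylate eIF2α, and ATF4 then induces genes of amino acid supply and stress. Of 28 genes on this list, 23 were lower in E3, where 14.7% of all genes were, 0 were higher, and the median log2 fold change was -1.09. With E3 replicate 3 left out, 26 were lower, where 21.5% of all genes were, and the median was -1.05. Over all genes tested the median was 0.01. Against clone E5, 25 of these genes were lower in E3 and 0 higher, where the background was 14.7% lower and 17.2% higher.

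The ATF4 element is shown because it is the site this factor is known to bind together with C/EBP proteins. The promoters are those of genes on the list and of Slc7a11, from the list of amino acid genes that follows. The searched letters were TGATGNAA, on both strands, in the 250 bases before and 50 after each transcription start in GRCm39, and capitals mark the matches:
Ddit3, chr10:127126331-127126398 (plus strand): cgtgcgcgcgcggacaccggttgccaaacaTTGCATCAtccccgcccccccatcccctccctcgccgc
Chac1, chr2:119181500-119181567 (plus strand): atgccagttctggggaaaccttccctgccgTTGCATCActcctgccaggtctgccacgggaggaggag
Fgf21, chr7:45265016-45265083 (minus strand): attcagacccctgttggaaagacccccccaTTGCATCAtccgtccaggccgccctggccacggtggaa
Slc7a11, chr3:50398091-50398158 (minus strand): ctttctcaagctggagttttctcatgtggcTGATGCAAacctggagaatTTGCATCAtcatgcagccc
The letters occurred in 7 of 28 promoters of the list (25%), in 4 of 36 of the list of amino acid genes that follows (11.1%) and in 2.58% of the promoters of all genes tested. Among members lower in E3 they occurred in 6 of 23 and 4 of 20, and in 0 of the 2 amino acid genes that were higher. No match in a promoter printed here or below overlapped a match of another element shown. A match is a description of the sequence and does not show that the site is bound in these cells.

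Atf4 itself was at 685, 739 and 735 CPM in WT and 416, 309.7 and 488 CPM in E3, a log2 fold change of -0.83 (standard error 0.15, adjusted p = 0.002). Ddit3, which encodes the transcription factor CHOP, was at 87.5, 98.8 and 99.7 CPM in WT and 20.2, 8.20 and 21.3 CPM in E3 (-2.53, standard error 0.35, adjusted p = 0.00052). Trib3, a pseudokinase induced by ATF4 and CHOP, was at 304, 330.3 and 323 CPM in WT and 62.2, 26.8 and 63.9 CPM in E3 (-2.65, standard error 0.30, adjusted p = 0.00016). For these genes the lines did not overlap, and E3 replicate 2 was the lowest library. Ppp1r15a, which encodes GADD34, the phosphatase subunit that reverses eIF2α phosphorylation, fell from 171, 186 and 179 to 20.8, 14.5 and 19.5 CPM (-3.29, adjusted p = 8.6e-06). Sesn2, a sestrin that restrains mTORC1 when leucine is short, fell from 176, 207 and 202 to 87.9, 62.9 and 65.5 CPM (-1.44). Both stood in every E3 library well under the WT range. Gdf15, a secreted stress factor, went from 2.58, 2.46 and 2.22 to 0.160, 0.0423 and 0.0660 CPM (-4.70). Fgf21, a stress hormone whose promoter is shown above, went from 4.61, 4.75 and 4.01 to 1.14, 0.106 and 0.923 CPM (-2.62). Eif4ebp1, a brake on cap-dependent translation that ATF4 induces, fell by 0.67 on the log2 scale (adjusted p = 0.0104). Chac1, which degrades glutathione, had a log2 fold change of -1.10 (adjusted p = 0.0228), and its adjusted p was 0.0686 without WT replicate 2 and 0.0751 without WT replicate 3. Each of the genes with values in this paragraph lay lower in E3 than in E5 as well, with adjusted p from 5e-05 to 0.0314.

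More genes that bring in or make amino acids were lower than higher. Of 36 transporters and synthesis enzymes, 20 were lower and 2 higher (median -0.69), and without E3 replicate 3 the numbers were 21 and 5. Slc7a5, the transporting subunit of the leucine carrier LAT1, was at 1391, 1782 and 1890.4 CPM in WT and 652, 539 and 494 CPM in E3 (-1.59, adjusted p = 0.00011). Slc3a2, the heavy chain that carries it to the membrane, was at 678, 792 and 817 CPM in WT and 345, 246 and 391 CPM in E3 (-1.22, adjusted p = 0.00098). Both subunits lay in every E3 library under the lowest WT library. Slc7a11, the cystine transporter xCT, fell from 85.3, 89.3 and 93.9 to 29.6, 20.4 and 13.3 CPM (-2.08, adjusted p = 0.00015). Cth, which makes cysteine from cystathionine, fell from 120.5, 138 and 129 to 18.5, 15.9 and 17.5 CPM (-2.90, adjusted p = 3.8e-05). Asns, asparagine synthetase, fell from 633, 697 and 698 to 266, 242 and 279 CPM (-1.37). Slc1a5, the glutamine transporter ASCT2, fell from 229, 257 and 258 to 151, 134 and 142 CPM (-0.80). For none of these did the lines overlap. Slc1a4, the neutral amino acid transporter ASCT1, was at 125, 153 and 169 CPM in WT and 133, 106 and 101 CPM in E3, with overlapping libraries, and did not pass (-0.40, adjusted p = 0.0525). It passed as lower by DESeq2 (adjusted p = 0.0329), with no filter on low counts (0.0425), and without WT replicate 1 (0.0315) or E3 replicate 1 (0.0197) or 3 (0.049). Of the members that rose, Slc1a3, a glutamate transporter, went from 3.43, 3.11 and 3.59 to 8.48, 10.6 and 5.76 CPM (1.29). Cbs, cystathionine beta-synthase, went from 0.901, 0.631 and 0.718 to 1.62, 2.03 and 2.55 CPM (1.45). All of these apart from Slc1a3 and Cbs were lower in E3 than in E5 as well (adjusted p from 6.2e-05 to 0.00719).

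Myc and most of the listed genes that build ribosomes were also lower. Myc, the growth-promoting transcription factor, was at 540.5, 638 and 646 CPM in WT and 230.5, 182 and 239 CPM in E3, with no overlap and little spread within either line (log2 fold change -1.48, standard error 0.13, adjusted p = 3e-05). Clone E5 was at 683 ± 33.1 CPM (SD, n = 3), and the difference of E3 from E5 was -1.65 on the log2 scale (adjusted p = 7.1e-06). Of 36 ribosome biogenesis genes, 27 were lower and 0 higher, with a median of -0.66. The number lower was 32 and the median -0.59 without E3 replicate 3. Of these genes 3 were DEGs lower in E3 with all libraries and 0 without that library. Against clone E5, 26 of them were lower in E3. Polr1a, the largest subunit of RNA polymerase I, fell from 283, 314 and 329.8 to 156, 204 and 96.4 CPM (-1.02, adjusted p = 0.00511). Ddx21, a nucleolar RNA helicase, fell from 567, 636 and 649 to 277, 364 and 209 CPM (-1.12). In both, E3 replicate 3 was the lowest library. Rrp12 and Ltv1, factors of small-subunit maturation and export, fell by 1.05 and 0.94 on the log2 scale. On a list of Myc and stem cell factors, 7 of 12 genes were lower and 1 higher (median -0.49). They included the pluripotency factor Klf4 (-1.32), Klf5 (-0.76), Lin28b, which blocks let-7 maturation (-1.20), and the chromatin protein Hmga2 (-0.64). Of the structural ribosomal proteins, 0 of 84 were higher and 0 lower.

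Genes of glucose uptake and lactate export were among those that fell. Of 38 genes of glycolysis and the hypoxia response, 15 were lower and 5 higher (median -0.13), and without E3 replicate 3 the numbers were 16 and 6. Among those that fell were the carriers at both ends of the pathway and its entry enzyme. Slc2a1, the glucose transporter GLUT1, went from 224, 224 and 234 to 113, 115 and 115 CPM (-0.99, adjusted p = 2.4e-05). Slc2a3, or GLUT3, went from 16.3, 20.1 and 20.3 to 7.40, 7.08 and 6.46 CPM (-1.44). Hk2, hexokinase 2, which traps glucose in the cell, went from 201, 235 and 262 to 89.2, 100.5 and 63.9 CPM (-1.46). Slc2a1 was nearly level across the replicates of each line, while Hk2 was lowest in E3 replicate 3. Slc16a3, the lactate exporter MCT4, went from 7.07, 5.38 and 6.12 to 0.760, 0.338 and 0.858 CPM (-3.24). Pgk1, phosphoglycerate kinase, did not pass (-0.10, adjusted p = 0.55). Ldhb, the lactate dehydrogenase subunit that favours pyruvate, was among the members that rose, from 3.85, 3.41 and 4.01 to 9.28, 7.31 and 13.1 CPM (1.40), as was Pfkm, the muscle phosphofructokinase (0.48). All 4 falling genes named here were lower in E3 than in E5 (adjusted p from 1.2e-06 to 0.00166).

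Angiogenic factors changed in both directions. Vegfa, the main ligand of endothelial growth, fell from 182, 180.4 and 175 to 79.9, 55.7 and 73.1 CPM (-1.37, standard error 0.15, adjusted p = 0.00016). Vegfc, a ligand of lymphatic growth, rose from 1.94, 3.26 and 2.68 to 8.34, 7.42 and 8.73 CPM (1.64). Its relative Vegfd rose from 5.03, 7.19 and 7.51 to 12.7, 15.6 and 13.9 CPM (1.10). Angpt1, the activating ligand of the TIE2 receptor, rose from 0.962, 0.968 and 1.18 to 7.02, 6.36 and 4.95 CPM (2.56, adjusted p = 3.8e-05). None of these had overlapping lines. The vasodilator peptide Adm rose from 13.8, 10.0 and 11.3 to 21.3, 21.9 and 24.4 CPM (0.94). Thbs1 (1.27), described above with the partners of CD47, is on this list too. The list was not divided into factors that promote and factors that restrain vessel growth. On the list as a whole, 9 of 16 genes were higher and 3 lower, with a median of 0.60. The number lower was 1 without WT replicate 3.

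Most cholesterol synthesis genes were higher. Of 24 genes, 16 were higher and 0 lower, with a median of 0.67, and 16 were higher without E3 replicate 3. The number higher was 10 without WT replicate 2 and 10 without WT replicate 3. Acat2, which condenses acetyl-CoA, rose from 26.6, 25.9 and 27.4 to 69.3, 57.5 and 78.9 CPM (1.37, adjusted p = 0.00139). Hmgcs1, a synthase early in the mevalonate pathway, was at 111, 94.1 and 96.7 CPM in WT and 197, 139.6 and 179.7 CPM in E3 (0.77, adjusted p = 0.00961). Mvd and Dhcr7, a decarboxylase and the reductase that finishes cholesterol, had log2 fold changes of 0.99 and 0.90. For Acat2 and Hmgcs1, E3 replicate 2 was the lowest E3 library and still lay above WT. Against clone E5, 6 of the genes were higher in E3 than in E5 and 0 lower, and Hmgcs1 did not pass that comparison (E3 against E5 0.32 on the log2 scale, adjusted p = 0.22).

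Chaperones of the endoplasmic reticulum fold secreted and membrane proteins, and part of their list was higher in E3. Of 30 ER chaperones, unfolded protein response factors and heat shock genes, 16 were higher and 3 lower (median 0.37), and without E3 replicate 3 the numbers were 17 and 4. The ER stress element, a site known to be bound by ATF6 with NF-Y, is shown from promoters of this list, with capitals for a match on either strand to CCAAT and CCACG with 9 bases of any kind between them:
Calr, chr8:85573674-85573752 (minus strand): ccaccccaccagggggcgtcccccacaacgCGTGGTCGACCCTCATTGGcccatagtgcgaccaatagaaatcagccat
Creld2, chr15:88703693-88703771 (plus strand): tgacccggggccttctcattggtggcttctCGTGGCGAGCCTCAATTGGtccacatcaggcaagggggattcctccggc
Hspa5, chr2:34662007-34662085 (plus strand): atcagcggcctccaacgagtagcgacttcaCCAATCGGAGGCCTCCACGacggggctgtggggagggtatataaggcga
The letters occurred in 8 of 30 promoters of the list (26.7%) and in 0.11% of all promoters. Among members higher in E3 they occurred in 5 of 16, and among those lower in 0 of 3. Calr, calreticulin, was at 588, 631 and 658 CPM in WT and 1000.1, 1082 and 1279.9 CPM in E3 (0.84, adjusted p = 0.00181). Xbp1, the transcription factor spliced by IRE1, rose from 90.6, 79.9 and 79.8 to 153, 106 and 176 CPM (0.80). Sdf2l1, an ER chaperone component, rose from 23.6, 24.2 and 26.3 to 38.4, 39.7 and 59.0 CPM (0.89). For Calr, Xbp1 and Sdf2l1, E3 replicate 3 was the highest library. Hspa5, or BiP, the chaperone that restrains the stress sensors, was at 1300.2, 1228 and 1205 CPM in WT and 1376, 1159 and 1427 CPM in E3, with overlapping libraries (0.086, adjusted p = 0.59). Hsp90b1 and Canx, further abundant chaperones of this compartment named after their values were seen, did not pass (0.10 and 0.13, adjusted p = 0.5 and 0.37), and Canx passed without E3 replicate 3 (0.22, adjusted p = 0.0265). The small heat shock protein Hspb8 rose by 0.92 and the stress-induced Hsp70 gene Hspa1b by 1.63 on the log2 scale. The members that fell were Atf6, the sensor itself, from 406, 449.7 and 452 to 276, 244 and 130.2 CPM (-1.01), Sel1l, of ER-associated degradation (-0.87), and Hspd1, a mitochondrial chaperonin (-0.48). Atf6 and Sel1l had their lowest value in E3 replicate 3. Against clone E5, 16 members were higher in E3 and 1 lower.

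A minority of the genes of cell division passed the test, nearly all of them higher in E3 and each by less than 2-fold. Of 43 mitosis genes, 17 were higher and 0 lower, with a median of 0.29. The count of those higher was 26 without E3 replicate 3, 7 without WT replicate 1, 7 without WT replicate 2 and 11 without WT replicate 3. Ccnb2, cyclin B2, was at 100.4, 101 and 103 CPM in WT and 159, 141 and 206 CPM in E3 (0.73, adjusted p = 0.00205). Kif20a, a kinesin of cytokinesis, rose from 129, 154 and 158 to 243, 261 and 215 CPM (0.71). Cdca3 and Cdc25c, regulators of mitotic entry, rose by 0.88 and 0.78 on the log2 scale. Ccnb1, cyclin B1, did not pass (0.094, adjusted p = 0.53). Mki67, the proliferation marker Ki-67, has a long transcript and was at 263, 268 and 314 CPM in WT and 468, 540.3 and 203 CPM in E3, with replicate 3 under WT and the other replicates over it. Its log2 fold change was 0.52 (adjusted p = 0.19) with all libraries and 0.84 (adjusted p = 3.4e-05) without that library. In the list of 47 DNA replication genes, 14 were higher and 1 lower (median 0.26), and 9, 7 and 7 were higher without WT replicate 1, 2 or 3. With E3 replicate 3 left out, 19 were higher and 3 lower. Pcna, the sliding clamp, rose from 268, 253 and 244 to 327, 379 and 454 CPM (0.60), and Fen1 and Gins2, a flap nuclease and a helicase subunit, rose by 0.55 and 0.61. Mcm2, a subunit of the replicative helicase, was the member that fell (-0.46). Against clone E5, 5 of the mitosis genes and 7 of the replication genes were higher in E3, both under the share of 17.2% over all genes.

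Histone genes of the replication-dependent clusters were higher where called. Their transcripts as a rule lack the poly(A) tail by which this library type captures RNA. Of 32 tested of 62 listed, 11 were higher and 0 lower (median 0.98). Without E3 replicate 3, of 34 tested, 9 were higher (26.5%, against 21.8% of all genes) and 1 lower (median 0.64). Their median transcript length was 626 bases, and E3 replicate 3 lay a median of 0.36 (log2) above the other E3 libraries on this list. Those higher numbered 6 without WT replicate 1 and 7 without WT replicate 3. H2bc21, an H2B gene, rose from 9.43, 8.33 and 9.62 to 20.4, 17.4 and 19.7 CPM (1.07, adjusted p = 8.8e-05). H2ac8, an H2A gene, rose from 0.881, 0.694 and 0.844 to 1.88, 2.16 and 3.25 CPM (1.58). Since histone genes are near-identical copies, reads may be divided among them. In E3, 4 were higher than in E5, under the share of 17.2% over all genes. Of the tubulins, Tuba1a rose from 61.8, 62.1 and 58.4 to 183, 220.1 and 258 CPM (1.86, adjusted p = 0.00019). Tubb2b, a beta-tubulin best known from neurons, rose from 2.08, 1.91 and 2.30 to 5.42, 4.94 and 5.58 CPM (1.34). Tuba8, another alpha-tubulin, fell from 1.5, 1.56 and 1.60 to 0.0800, 0.0634 and 0.132 CPM (-4.05). Tubulin isotypes are close paralogs, whose reads the counting may have divided among them.

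Immediate early genes, which growth factor signals switch on within minutes through SRF and ETS factors, were lower in part. Of 23, 9 were lower and 1 higher (median -0.22), and without E3 replicate 3 12 were lower and 2 higher. The number higher was 0 without WT replicate 1, 2 or 3 and 2 without E3 replicate 2. Egr1 was at 24.4, 23.2 and 26.2 CPM in WT and 1.62, 0.465 and 0.770 CPM in E3 (-4.68, standard error 0.35, adjusted p = 1.6e-05). Atf3, a bZIP factor that ATF4 also induces, was at 38.6, 48.1 and 45.9 CPM in WT and 3.64, 2.03 and 3.8 CPM in E3 (-3.81, standard error 0.24, adjusted p = 4.8e-06). Both genes lay under 4 CPM in every E3 replicate, far below WT. Jun, a subunit of AP-1, was at 155, 166 and 168 CPM in WT and 156, 139 and 151 CPM in E3, with overlapping libraries (-0.14, adjusted p = 0.29). The difference of E3 from E5 did not pass for Egr1 (-0.54 on the log2 scale, adjusted p = 0.3). Atf3 was lower in E3 than in E5 (-1.75 on the log2 scale, adjusted p = 0.00028).

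Feedback genes of ERK, the phosphatases, Sproutys and ETV factors whose levels follow the activity of the pathway, were mixed, and 7 of 22 were lower and 4 higher (median -0.20). The number higher was 1 without WT replicate 1, 0 without WT replicate 2 or 3 or E3 replicate 1, 2 without E5 replicate 1 or 3 and 1 without E5 replicate 2. Dusp6, the cytoplasmic ERK phosphatase, fell from 411, 389.9 and 383 to 296, 228 and 281 CPM (-0.56, adjusted p = 0.00371). Dusp5, its nuclear relative, fell from 29.1, 30.4 and 31.0 to 11.2, 14.1 and 13.8 CPM (-1.21). Dusp4, also nuclear, fell from 104, 109 and 108 to 68.7, 63.1 and 35.1 CPM (-0.95). For each of these phosphatases the lines did not overlap. The inhibitor Spry4 fell by 0.72 and the ETS factor Etv5 by 1.07 on the log2 scale, while Spry2 did not pass (-0.25, adjusted p = 0.24). Among the core genes of the cascade, 7 of 21 were lower, among them the exchange factor Sos2 (-0.82). The number lower was 3 without WT replicate 1, 4 without WT replicate 2 or 3, E3 replicate 1 or E5 replicate 2, and 4 under upper-quartile scaling. Of this cascade 0 were higher, and 2 without E3 replicate 2 or 3.

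Ligands of the EGF receptor family changed in opposite directions. Areg, amphiregulin, fell from 49.7, 56.9 and 49.3 to 11, 10.8 and 14.0 CPM (-2.12, standard error 0.12, adjusted p = 2.9e-06). Hbegf, heparin-binding EGF, fell from 16, 20.2 and 20.7 to 5.68, 7.40 and 7.32 CPM (-1.48, adjusted p = 5.8e-05). Nrg1, a ligand of ERBB3 and ERBB4, rose from 0.200, 0.442 and 0.274 to 3.12, 4.29 and 1.36 CPM (3.25, adjusted p = 0.00046). All of these differed from clone E5 too, with Areg and Hbegf lower (adjusted p = 0.00088 and 0.00016) and Nrg1 higher (adjusted p = 0.00198). Egfr, whose transcript is long, was at 42.6, 40.2 and 44.3 CPM in WT and 66.2, 56.2 and 30.0 CPM in E3, with replicate 3 under WT and the other replicates over it. It did not pass with all libraries (0.26, adjusted p = 0.42) and passed without replicate 3 (0.53, adjusted p = 0.00048). Of other receptor tyrosine kinases, Pdgfrb rose from 1.3, 1.45 and 1.20 to 6.12, 6.36 and 4.2 CPM (2.07, adjusted p = 6.9e-05). Pdgfra, its partner receptor, rose from 30.3, 23.5 and 23.8 to 66.7, 49.1 and 36.4 CPM (0.97), while Ddr2, a collagen receptor, fell by 0.98 on the log2 scale. Both PDGF receptors were higher in E3 than in E5 (adjusted p = 8.9e-07 and 0.0003).

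**Figure D4:**
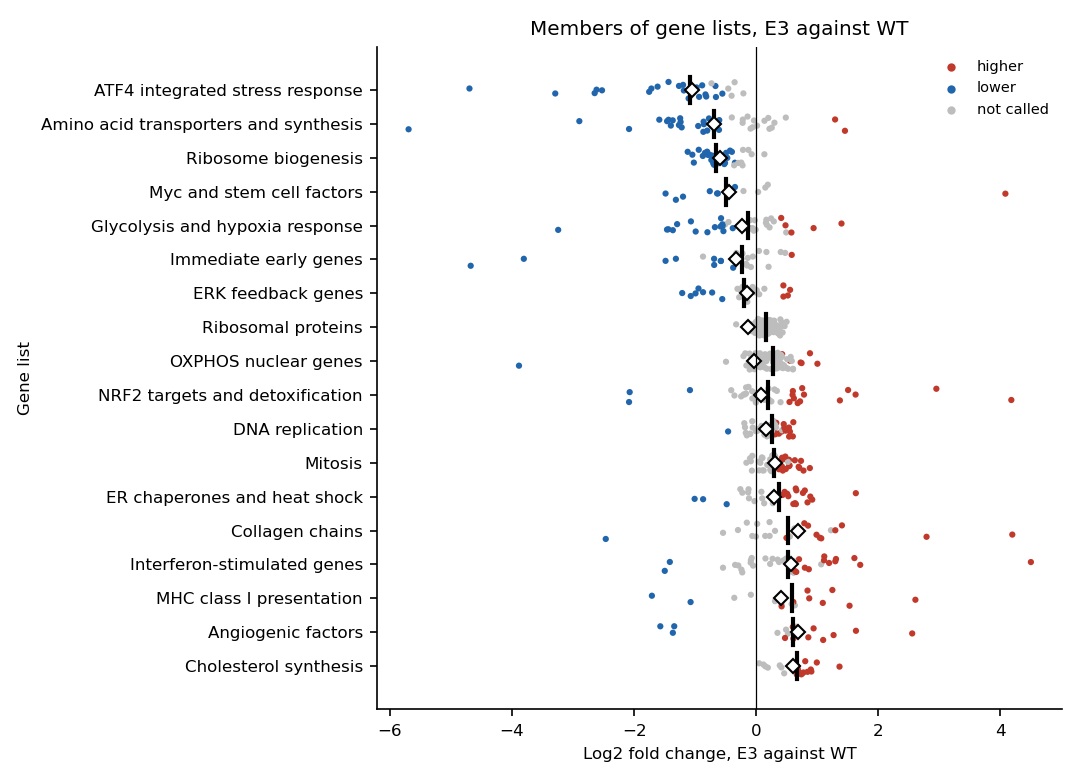
Log2 fold change of E3 against WT for the tested members of 18 gene lists, with members at an adjusted p under 0.05 in colour. Black bars are list medians with all libraries and open diamonds medians without E3 replicate 3. The ATF4 list lies at -1.09 and -1.05, and the ribosomal protein list moves from 0.16 to -0.14.

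Most called collagen genes were higher, and other matrix genes changed in both directions. Of 24 collagen chains tested of 44 listed, 10 were higher and 1 lower (median 0.52), and without E3 replicate 3 15 were higher, with a median of 0.68. The number lower was 2 without E3 replicate 1. These transcripts had a median length of 6076 bases, and E3 replicate 3 lay a median of 0.25 (log2) below the other E3 libraries on this list. Col6a2, of the beaded-filament collagen VI, was at 151, 129.8 and 139 CPM in WT and 357, 249.7 and 274 CPM in E3 (1.07, adjusted p = 0.0003). Col4a5, an X-linked chain of basement membranes, rose from 8.11, 7.76 and 7.98 to 70.3, 56.4 and 38.5 CPM (2.79, adjusted p = 1.9e-05), and clone E5 was at a mean of 0.0123 CPM. In each of these every E3 library lay above every WT library. Col2a1, the collagen of cartilage, rose from 0.240, 0.147 and 0.253 to 4.84, 3.17 and 3.89 CPM (4.2). Col7a1, of anchoring fibrils, rose from 3.59, 4.02 and 4.39 to 8.86, 10.9 and 9.67 CPM (1.3). Col5a2, which sets the width of collagen I fibrils, was the chain that fell, from 1.56, 1.11 and 1.65 to 0.280, 0.211 and 0.286 CPM (-2.46). Against clone E5, 14 collagen chains were higher in E3 and 0 lower.

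Small proteoglycans changed in opposite directions. Bgn, biglycan, was at 122, 119 and 121 CPM in WT and 664, 569.6 and 552 CPM in E3 (2.30, standard error 0.11, adjusted p = 1e-06). Dcn, decorin, was at 30.1, 23.1 and 21.6 CPM in WT and 3.78, 1.46 and 3.32 CPM in E3 (-3.13, standard error 0.31, adjusted p = 6.7e-05). Ogn, osteoglycin, rose from 7.43, 5.49 and 6.16 to 21.5, 17.9 and 17.6 CPM (1.58). The libraries of the lines did not overlap for any of them. On the list of proteoglycans 5 of 13 were higher and 1 lower, with 3 higher without WT replicate 2 or 3 and 2 lower without E3 replicate 2 or 3. Of 30 matrix glycoproteins, 11 were higher and 6 lower (median 0.049). Sparc, which binds collagen, rose from 228, 248 and 266 to 582, 593 and 646 CPM (1.3, adjusted p = 4.9e-05). Emilin1, of elastic fibres, rose from 71.0, 67.7 and 71.6 to 251, 210.4 and 253 CPM (1.76, adjusted p = 8.6e-06). Ccn4, a WNT-induced matricellular protein, rose by 1.40 on the log2 scale. Its relative Ccn3 fell from 50.4, 46.3 and 48.1 to 14.5, 10.9 and 14.7 CPM (-1.85). Spp1, osteopontin, fell from 2364, 2073 and 1856 to 1230.5, 919.9 and 1429 CPM (-0.81), and Tgfbi by 2.03 on the log2 scale. Fn1, fibronectin, was at 2246, 1778 and 1762 CPM in WT and 1481, 1254 and 556 CPM in E3. It did not pass with all libraries (-0.81, adjusted p = 0.0757), and passed without E3 replicate 3 (-0.50, adjusted p = 0.0486) and without E3 replicate 1 (adjusted p = 0.0422). With all libraries it also passed by DESeq2 (adjusted p = 0.0287) and in edgeR with no filter on low counts (0.0117).

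Enzymes that cut and cross-link matrix changed in both directions. Loxl2, a lysyl oxidase that cross-links collagen IV, was at 3.89, 3.58 and 3.78 CPM in WT and 0.160, 0.127 and 0.0880 CPM in E3 (-4.87), while clone E5 was at 10.1 ± 1.19 CPM (SD, n = 3). Mmp3, stromelysin 1, rose from 39.4, 41.6 and 44.4 to 102, 108 and 132 CPM (1.45, adjusted p = 2.1e-05). Plat, tissue plasminogen activator, rose from 18.2, 16.8 and 20.1 to 46.5, 40.5 and 44.7 CPM (1.26). Plau, urokinase, fell from 183, 159 and 164 to 118, 76.5 and 118 CPM (-0.69), and Mmp28 by 1.65 on the log2 scale. None of the genes with values per library here had overlapping lines. Of 35 matrix proteases and inhibitors, 10 were higher and 7 lower, with 6, 5 and 6 higher without WT replicate 1, 2 or 3 and 6 without E3 replicate 1. Among integrins and focal adhesion genes, Itga6, the laminin receptor subunit, fell from 562, 592 and 596 to 254, 256 and 141 CPM (-1.43). Itgb2 fell by 1.29 and the adaptor Pxn by 0.97 on the log2 scale, while Itgb5 rose by 0.52. That list had 8 of 25 lower (5 without WT replicate 2 or 3) and 3 higher (6 without E3 replicate 3), and its median of -0.026 turned to 0.11 without E3 replicate 3 and to 0.037 under upper-quartile scaling.

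Of 11 transcription factors of the epithelial-mesenchymal transition, 2 were higher and 2 lower (18.2% each). These were near the shares of 15.7% and 14.7% over all genes. With E3 replicate 3 left out, 2 were higher and 3 lower. Snai1 rose from 8.63, 7.93 and 7.47 to 16.8, 14.9 and 17.1 CPM (1.02, adjusted p = 0.00012). Its relative Snai2 fell from 103, 116 and 117 to 72.9, 59.3 and 63.6 CPM (-0.78, adjusted p = 0.00071). Prrx1, a homeobox factor of mesenchyme, fell from 436, 404 and 394 to 245, 219 and 164 CPM (-0.97). Its relative Prrx2 rose from 1.5, 1.75 and 1.82 to 7.0, 7.29 and 9.50 CPM (2.23). Twist1, Zeb1 and Zeb2 did not pass (0.20, -0.38 and -0.11, adjusted p = 0.22, 0.19 and 0.73). The log2 fold change of Zeb2 was 0.14 without E3 replicate 3. Krt8, a keratin of simple epithelia, fell from 183, 191 and 199.7 to 36.8, 32.3 and 45.3 CPM (-2.33, adjusted p = 2.3e-06). Its partner Krt18 fell from 275, 259 and 259 to 127, 95.0 and 153 CPM (-1.08, adjusted p = 0.00057). In both, every E3 library lay below every WT library. Clone E5 was at 370.4 ± 18.2 CPM of Krt8 and 558 ± 35.9 CPM of Krt18 (SD, n = 3), above WT. The differences of E3 from E5 were -3.28 and -2.16 on the log2 scale (adjusted p = 7.2e-08 and 4.8e-06). Vim, vimentin, was at 4151, 4131 and 4217 CPM in WT and 5259, 4848 and 6333 CPM in E3 (0.40, adjusted p = 0.0301), a call lost without WT replicate 1, 2 or 3 (adjusted p = 0.0832, 0.1 and 0.0814). Of the signals that shape such states, Bmp4 rose from 0.561, 0.358 and 0.295 to 5.22, 3.25 and 5.21 CPM (3.48). The BMP target Id2 rose from 7.15, 6.88 and 7.53 to 21.1, 18 and 27.9 CPM (1.64). The preset genes Id1, Smad6 and Smad7 did not pass (0.23, 0.68 and -0.33, adjusted p = 0.39, 0.34 and 0.061). Without E3 replicate 3 the log2 fold change of Id1 was -0.075. The WNT ligand Wnt5a rose from 1.96, 2.21 and 2.55 to 16.8, 16.1 and 10.7 CPM (2.69). Wnt7b, another WNT ligand, fell from 143, 149 and 150.1 to 69.8, 69.5 and 65.4 CPM (-1.11). Of 27 WNT pathway genes 10 were higher and 5 lower, and of 36 TGF-beta and BMP genes 8 were higher and 6 lower.

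More genes of the interferon response were higher than lower. Of 36 tested of 54 listed, 14 were higher and 2 lower (median 0.52), and without E3 replicate 3 the numbers were 16 and 3. The number lower was 1 without WT replicate 1, 2 or 3. The core of the interferon-stimulated response element, to which factors activated by the interferon receptor bind, is shown from members of the list with capitals for a match on either strand to GAAA repeated after 2 bases of any kind:
Ifit3, chr19:34560743-34560812 (plus strand): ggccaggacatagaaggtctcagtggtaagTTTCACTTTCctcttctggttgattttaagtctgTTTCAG
Stat2, chr10:128106115-128106184 (plus strand): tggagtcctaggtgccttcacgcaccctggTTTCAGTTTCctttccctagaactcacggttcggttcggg
Usp18, chr6:121222752-121222821 (plus strand): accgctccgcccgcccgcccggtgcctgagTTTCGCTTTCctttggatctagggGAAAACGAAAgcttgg
These letters occurred in 15 of 36 promoters of the list (41.7%) and in 3.43% of all promoters. Among members higher in E3 they occurred in 6 of 14, and among those lower in 2 of 2. A further match of Ifit3 is cut by the end of the run. Ifit3, an RNA-binding effector, was at 0.601, 0.631 and 0.401 CPM in WT and 1.70, 1.61 and 2.04 CPM in E3 (1.71, adjusted p = 0.00073). Stat2 was at 12.9, 10.8 and 10.7 CPM in WT and 21, 17.7 and 15.7 CPM in E3 (0.66, adjusted p = 0.00699). Irf1, a transcription factor upstream of antigen presentation, rose from 17.1, 14.2 and 14.6 to 34.7, 30.1 and 40.2 CPM (1.19). Ube2l6, the E2 enzyme for ISG15, rose from 5.69, 6.25 and 6.23 to 12.9, 12.6 and 19.2 CPM (1.3). Usp18, the inhibitor of the interferon receptor whose promoter is shown as well, fell from 1.18, 0.883 and 1.03 to 0.400, 0.211 and 0.484 CPM (-1.5). Il15, a cytokine for natural killer cells, rose from 0.120, 0.0631 and 0.127 to 1.28, 0.803 and 1.14 CPM (3.35). The chemokine Cxcl16 fell by 2.49 on the log2 scale.

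Genes of MHC class I, which shows peptides to T cells, changed in both directions. Tapbp, tapasin, rose from 39.6, 40.8 and 45.5 to 105, 79.7 and 114 CPM (1.25, adjusted p = 0.00011). H2-T22, a non-classical chain, rose from 22.5, 23.1 and 21.3 to 39.1, 35.0 and 48.0 CPM (0.87). H2-K1, a classical chain, fell from 18.5, 15.5 and 16 to 5.38, 3.25 and 6.68 CPM (-1.71, adjusted p = 0.00033). H2-D1, the other classical chain, was at 244, 241 and 234 CPM in WT and 178, 149 and 234 CPM in E3. It did not pass with all libraries (-0.36, adjusted p = 0.084), where E3 replicate 3 overlapped WT, and passed as lower without that library (-0.56, adjusted p = 0.00014). B2m, the shared light chain, was at 170.4, 167 and 167 CPM in WT and 212, 176 and 285 CPM in E3 (0.42, adjusted p = 0.059), and passed without E3 replicate 2 (adjusted p = 0.00766) and without replicate 3 (0.0495). With all libraries it also passed by DESeq2 (adjusted p = 0.0367) and under upper-quartile scaling in edgeR (0.0477). Of 16 genes 8 were higher and 2 lower (median 0.59), and against clone E5 11 were higher in E3 and 0 lower. The number lower was 1 without WT replicate 1, 2 or 3. Class I heavy chains are close paralogs, whose reads the counting may have divided. Of surface ligands for immune cells, Pvr, a ligand of DNAM-1 and TIGIT, fell from 52.9, 59.5 and 58.3 to 27.1, 20.6 and 23.5 CPM (-1.26). Cd274, or PD-L1, fell from 3.10, 2.67 and 2.87 to 1.78, 1.78 and 1.23 CPM (-0.85). Vsir, or VISTA, rose from 6.13, 4.59 and 5.53 to 16, 11.1 and 14.2 CPM (1.35). For these 3 the lines did not overlap.

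Detoxifying genes that the oxidative stress factor NRF2 controls rose in part. Nqo1, a quinone reductase, was at 31.4, 37.8 and 36.0 CPM in WT and 105, 100.4 and 119 CPM in E3 (1.63, adjusted p = 1.3e-05). Gsta4, a glutathione transferase, was at 11.6, 13.0 and 12 CPM in WT and 31.7, 24.0 and 48.1 CPM in E3 (1.51). Mgst1, its microsomal relative, rose from 0.681, 0.589 and 0.401 to 4.08, 3.36 and 5.58 CPM (2.95). In each, all E3 libraries stood above WT. Mt1, a metallothionein that binds zinc and copper, fell from 149.7, 148 and 164 to 47.9, 76.2 and 93.3 CPM (-1.09). Mt2, its neighbour, fell from 111, 134 and 138 to 18.8, 35.6 and 36.7 CPM (-2.07). E3 replicate 1 was the lowest library for both. Slc7a11, described above with the amino acid genes, is on this list too and fell (-2.08). The preset gene Hmox1, heme oxygenase 1, did not pass (0.00022, adjusted p = 0.999). Its log2 fold change was -0.094 without E3 replicate 3. Of 38 genes on the list 13 were higher and 3 lower, and 6 were lower without E3 replicate 3. Genes of p53 showed no common direction, with 8 of 26 higher and 7 lower, and 5, 4 and 4 higher without WT replicate 1, 2 or 3. Gadd45a, a stress sensor that ATF4 induces too, fell from 104, 108 and 107 to 30.1, 13.5 and 33.8 CPM (-2.04). Ccng1, cyclin G1, rose from 186, 175 and 165 to 350.2, 467 and 302 CPM (1.09). In the BCL2 family, 3 of 17 genes were higher and 3 lower (17.6% each), near the shares of 15.7% and 14.7% over all genes. Without E3 replicate 3 the numbers were 5 and 5. The pro-apoptotic Pmaip1, or NOXA, rose by 1.48 and Bid and Bbc3, or PUMA, fell by 1.01 and 0.76 on the log2 scale.

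Several smaller groups held changes in both directions, where 15.7% of all genes were higher and 14.7% lower. Of the axon guidance genes, 15 of 48 were higher and 12 lower, and 7 were lower without WT replicate 3. Sema3d was at no more than 3 counts in any WT library and at 7.88, 4.35 and 2.97 CPM in E3, so no fold is given. Slit3 rose by 1.86 and Nrp1, a coreceptor of semaphorins and VEGF, by 1.49 on the log2 scale, while Sema3c fell by 2.05. Among imprinted genes, Peg10 rose from 65.5, 59.3 and 67.2 to 181, 165 and 93.9 CPM (1.19) and Mest by 1.54 on the log2 scale, with 6 of 14 higher and 3 lower, and 3 higher without WT replicate 1, 2 or 3 or E3 replicate 1. Ndn was at 1.36, 1.51 and 1.29 CPM in WT and at no more than 2 counts in any E3 library. Of the Hox genes, Hoxb8 rose by 1.60 and Hoxa10 fell by 1.05, with 9 of 27 higher and 3 lower (median 0.33), and 5 higher without WT replicate 2. In cyclic nucleotide signalling, 3 of 27 were higher and 7 lower, with 5 and 8 higher without E3 replicate 2 or 3 and 4 lower without WT replicate 1, 2 or 3 or E5 replicate 3. The phosphodiesterase Pde3b fell from 80.4, 77.7 and 78.1 to 26.4, 27.2 and 16.4 CPM (-1.75). The catalytic subunit of protein kinase A, Prkaca, rose from 101, 104 and 114 to 181, 178 and 189 CPM (0.78). Of the fatty acid enzymes, 3 of 21 were higher (14.3%) and 4 lower (19%), near the shares over all genes. There was 1 higher without WT replicate 1 or 2 or E3 replicate 1, and 8 were higher without E3 replicate 3. The number lower was 2 without WT replicate 1, 2 or 3 or E5 replicate 1 or 2. Fads3, a desaturase-family gene, fell from 85.6, 94.9 and 93.1 to 33.2, 30.4 and 34.5 CPM (-1.48). Elovl7, an elongase, fell from 9.05, 6.73 and 6.65 to 0.960, 1.01 and 0.836 CPM (-2.99). In these 4 enzymes the lines did not overlap.

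The X chromosome had a larger share of DEGs higher in E3 than the autosomes did. Of 459 X-linked genes tested, 65 (14.2%) were DEGs higher in E3 and 20 (4.36%) DEGs lower, against 5.15% and 4.38% of 14120 autosomal genes. With only genes of at least 1 CPM in WT, the shares higher were 7.97% and 2.65%. The median log2 fold change of X-linked genes was 0.03. Maged2, a MAGE family gene, was at 4.99, 4.82 and 4.18 CPM in WT and 46.3, 35.5 and 46.0 CPM in E3 (3.19, adjusted p = 3.9e-06), and clone E5 was at a mean of 0.0411 CPM. Pwwp3b rose from 4.47, 3.95 and 4.28 to 40.1, 42.5 and 27.0 CPM (3.11). Capn6, a calpain without protease activity, rose from 0.861, 0.925 and 0.992 to 13.1, 10.1 and 7.08 CPM (3.44). Gria3, a glutamate receptor subunit, was at 0.160, 0.168 and 0.169 CPM in WT and 8.92, 9.28 and 4.68 CPM in E3 (5.50). Mageh1, another MAGE gene, was at 1.14, 0.463 and 0.802 CPM in WT and 7.06, 4.54 and 8.64 CPM in E3 (3.06). In all 5 the lines did not overlap. Smarca1, a chromatin remodeller of the ISWI family, was at no more than 3 counts in a WT library and at 8.38, 5.81 and 5.67 CPM in E3. The next 3 genes were chosen after their values were seen. Armcx2, of the armadillo repeat family, was at 16.3, 15.8 and 15.9 CPM in WT, 79.7, 75.5 and 68.1 CPM in E3 and 0 CPM in every E5 library. Tmem47, a membrane protein of cell junctions, was at 9.68, 8.62 and 8.55 CPM in WT, 58.8, 48.5 and 43.8 CPM in E3 and 0 CPM in every E5 library. Shroom2, an actin-binding protein, had 0 counts in every WT library and was at 3.30, 2.43 and 1.10 CPM in E3. The loss of Xist described above stood beside these gains in the same libraries, and its part in them was not tested.

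**Figure D5:**
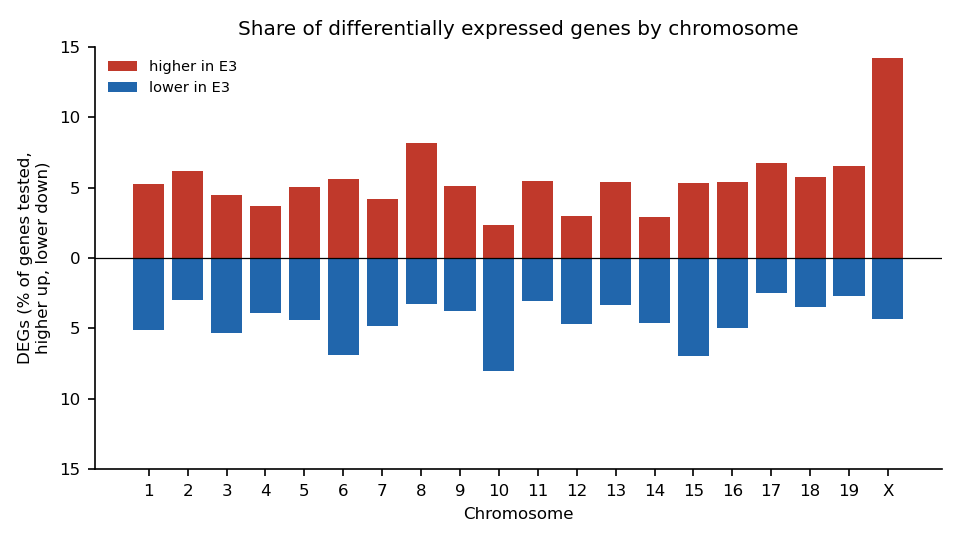
Percent of tested genes on each chromosome that were DEGs higher (up) or lower (down) in E3 than in WT. The X chromosome has 14.2% higher, chromosome 8 has 8.19%, and chromosome 10 has the largest share lower, at 8.04%.

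Among the autosomes, chromosome 10 had a median log2 fold change of -0.24, with 211 of 684 genes lower (30.8%) and 50 higher. Chromosome 6 had 186 of 709 lower (26.2%) and 80 higher. Chromosomes 8, 17 and 19 stood on the other side, with 26.4%, 25.1% and 25.5% of their genes higher and medians of 0.18, 0.19 and 0.18. Without E3 replicate 3 the medians of chromosomes 10, 8, 17 and 19 were -0.23, 0.17, 0.17 and 0.15. Genes named above lie on these chromosomes, Ddit3, Ddx21, Lin28b, Dcn and Dusp6 on chromosome 10, Slc2a3, Hk2 and Asns on chromosome 6, and Vegfa, Tapbp and H2-K1 on chromosome 17, and whether their differences follow the chromosome was not tested.

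Lists of short transcripts changed their medians when E3 replicate 3 was left out. The nuclear genes of oxidative phosphorylation, with a median transcript length of 1101 bases, lay a median of 0.71 (log2) higher in that library than in the other E3 libraries. Their median log2 fold change was 0.27 with it and -0.036 without it, and 6 of 83 were higher and 1 lower with it, against 10 and 16 without it. The number higher was 2 without WT replicate 2, 3 without WT replicate 3, 17 without E3 replicate 1 and 16 without E3 replicate 2. For ribosomal proteins the library lay 0.75 higher, the median turned from 0.16 to -0.14, 6 were lower without it, and 3 were higher without E3 replicate 2. For the proteasome it lay 0.45 higher, with medians of 0.18 and 0.049. Among 37 proteasome genes 4 were higher (11 without E3 replicate 1) and 0 lower (6 without E3 replicate 3). The mitochondrially encoded genes gave 0 higher and 0 lower of 10, with and without it, and 1 higher without E3 replicate 1. The ATF4, amino acid and ribosome biogenesis lists differed in that library from the other E3 libraries by medians of 0.10, -0.10 and 0.039.

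Markers of other cell types were checked against the label. Summed over 12 haematopoietic markers, the level was 3.02 to 3.7 CPM in the WT libraries and 2.91 to 3.45 CPM in the E3 libraries. Cd3e and Nkg7 were at 0 in all of them, and of the 3 that passed the filter on low counts 0 were higher and 0 lower. The 8 endothelial markers summed to 0.22 to 0.422 CPM in WT and 0.286 to 0.48 CPM in E3, Cldn5, Emcn and Erg were at 0, and 0 passed the filter. The defining markers of blood and vessel cells were thus at or near 0 in both lines. The 16 markers of lung epithelium summed to 501 to 507 CPM in WT and 175 to 237 CPM in E3. Of the 6 that passed, 3 were lower, all of them keratins, while Epcam, Nkx2-1, Scgb1a1 and the surfactant genes Sftpa1, Sftpb, Sftpc and Sftpd were at 0. The 7 mesenchymal markers summed to 6710 to 7220 CPM in WT and 7400 to 8540 CPM in E3, with 3 higher and 0 lower. There 1 was higher without WT replicate 2 or 3, and 1 was lower without E3 replicate 1 or 3. The 8 fibroblast markers summed to 2720 to 3040 CPM in WT and 3550 to 4540 CPM in E3, with Thy1 at 0. Of the 7 that passed, 5 were higher (3 without WT replicate 2) and 1, Dcn, was lower, and they overlap the collagen and receptor genes described above.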

How the data were processed

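RNA-seq libraries were prepared by the authors from polyadenylated RNA of LLC cells, 3 each of WT, CD47 KO clone E3 and clone E5, and sequenced in paired-end mode. The authors processed the reads with FastQC, Trimmomatic and STAR on GRCm39 and deposited raw counts per gene for each library, without normalization or pooling. The versions, counter, strand setting and annotation release are not given in the sources used here, so values of overlapping or antisense genes and of close paralogs are uncertain. The libraries held 44257404 to 55095219 counts, and their precision is limited by the spread between replicates more than by counting for genes above a few CPM.

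From the deposited counts, edgeR (version 4.0.16, R version 4.3.3) was run on all 9 libraries in 1 fit with TMM scaling and filterByExpr (minimum count 10, minimum total count 15), by the quasi-likelihood test of E3 against WT and of E3 against E5. The test of E5 against WT from the same fit was used only to choose the genes flagged for a closer look. P-values were adjusted by Benjamini and Hochberg over the 14593 genes tested. DEGs passed an adjusted p of 0.05 with a log2 fold change above 1 in size. A standard error was taken as the size of the log2 fold change divided by the root of its F value. Genes with at most 3 counts in every library of a group were given no fold. The members and gene lists were chosen with earlier results of these data known. Genes named are Cd47, preset genes of each list, up to 4 most positive and 4 most negative called members of each list with at least 1 CPM in the higher line, and the 12 most positive and 12 most negative DEGs with an average log2 CPM above 1, no overlap between the lines, an adjusted p under 0.05 also without E3 replicate 3 and a symbol other than a predicted, Riken or clone name. Not every gene this covers is printed, and some are not reported here. The transcript length of a gene and the promoter windows come from the GENCODE annotation of GRCm39. The edgeR step was tested on simulated data first.

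The alternatives were DESeq2 (version 1.42.0), upper-quartile scaling or the size factors of DESeq2 within edgeR, leaving genes unfiltered or asking for 10 counts per library throughout, a fit of the WT and E3 libraries alone, the replicate number as a block, and each library left out in turn.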

Additional observations from a re-analysis of the deposited data

Results flagged for a closer look

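Clone E3 and clone E5 carry edits made with the same guide, and 4661 genes differed between them at an adjusted p under 0.05 in the same fit (31.9% of those tested). The WT libraries are shared by the comparisons of both clones with WT, so the clones are compared by the direct difference of E3 from E5. The tests of each clone against WT served here only to choose the genes listed next. With 3 libraries in a line, no library was tested as an outlier. Cd47 itself differed, E3 lying above E5 by 1.36 on the log2 scale (adjusted p = 2.8e-05).

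The other genes of the text listed here lay on opposite sides of WT in the clones, past the threshold against WT in each and in the direct comparison. Higher in E3 and at no more than 3 counts in any E5 library were Armcx2 at a mean of 74.4 CPM in E3, Tmem47 at 50.4 CPM, Col4a5 at 55.1 CPM, Marcks at 21.4 CPM, B4galt6 at 13.4 CPM, Slc1a3 at 8.27 CPM, Gria3 at 7.63 CPM, Mageh1 at 6.75 CPM and Bmp4 at 4.56 CPM. Each passed the direct comparison with an adjusted p of 1.7e-05 or less. Of matrix genes, E3 lay above E5 by 7.74 on the log2 scale in Bgn, by 4.07 in Mmp3 and by 1.72 in Col6a2. Among other genes it lay above E5 by 9.94 in Maged2, 4.26 in Ldhb, 4.14 in Pdgfrb, 3.37 in Cbs, 3.34 in Nrarp, 1.69 in Adm and 1.60 in Qpct. Genes below WT in E3 but above WT in E5 had log2 differences, E3 against E5, of -8.18 in Etl4, -7.16 in Scn9a, -6.29 in Loxl2, -3.28 in Krt8, -2.19 in Lin28b, -2.16 in Krt18, -1.97 in Hoxa10, -1.96 in Slc2a3 and -1.24 in Dll1.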

How the results depend on the processing

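Cd47 was lower in E3 under each alternative, with log2 fold changes of -1.92 to -2.13. DEGs numbered 1433 (792 higher and 641 lower) and 828 (461 and 367) where every library had to hold 10 counts, which tested 12550 genes in place of 14593. With 1 library left out, DEGs numbered 1262 to 1583 (690 to 889 higher and 572 to 694 lower). At an adjusted p under 0.05 the 4445 genes (2296 higher and 2149 lower) became 2875 without WT replicate 2 to 6423 without E3 replicate 3, with 1427 to 3234 higher and 1448 to 3189 lower. With only WT and E3 libraries in the fit, 3350 passed (1749 higher and 1601 lower), and DEGs numbered 1346 (758 and 588). With only WT and E3 libraries and E3 replicate 3 left out as well, 3279 were lower. Upper-quartile scaling moved the median of all genes to 0.088 and gave 911 DEGs higher and 551 lower, and DESeq2 gave 805 and 643. The other genes with values in the text, apart from Hmox1, Id1, Smad6, Smad7 and Zeb2, numbered 200. Of these, 187 had the same direction and the same side of the threshold under every alternative that tested them and 196 the same direction. Among these 200, the genes that crossed the threshold were B2m, Canx, Chac1, Egfr, Fn1, H2-D1, Mki67, Slc1a4 and Vim. Usp9x, Huwe1, Rpl41 and Rps14, none of which was called, changed sign as 1 library was left out in turn, ranging from -0.69 to 0.18, -0.70 to 0.15, -0.074 to 0.57 and -0.10 to 0.50. The values on the other side of 0 were those without E3 replicate 3, and they were 0.17, 0.14, -0.087 and -0.11 with only WT and E3 libraries as well. The cause was not tested.

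The deviations of the libraries showed no clear pairing by replicate number. These deviations also hold the differences by transcript length, and a pairing of the samples was not tested otherwise. The deviations of same-numbered WT and E3 libraries from their line means had correlations of -0.027, 0.099 and -0.20 across genes, and WT replicate 1 and replicate 3 correlated best with E3 replicates 3 and 2. With the replicate block, 1845 genes were higher and 1819 lower at an adjusted p under 0.05, DEGs numbered 745 and 625, and of the genes named Vim lost its call (adjusted p = 0.0586).

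The 3 libraries per line limit what a missed threshold says, E3 replicate 3 widened the spread for long and short transcripts, and 1 clone cannot separate the edit from the clone.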

Other observations

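Some functions outside the comparisons above held changes in both directions, where 15.7% of all genes were higher and 14.7% lower. Of 14 Notch pathway genes, 3 were higher in E3 than in WT and 4 lower (1 higher without WT replicate 2 or E3 replicate 1, and 2 lower without WT replicate 3). Nrarp, a target and inhibitor of the pathway, was at 0.721, 0.610 and 0.844 CPM in WT and 1.44, 1.63 and 2.15 CPM in E3 (1.26, adjusted p = 0.00916). Dll1, a ligand, was at 3.27, 4.16 and 4.05 CPM in WT and 2.56, 2.13 and 2.09 CPM in E3 (-0.76, adjusted p = 0.00472). For neither gene did the lines overlap.

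Of 34 glycosyltransferases, 8 were higher and 8 lower, with 5 higher without WT replicate 2 or 3 or E3 replicate 1. St3gal5, which makes the ganglioside GM3 and acts after B4galt6, rose from 5.37, 5.53 and 5.47 CPM in WT to 11.9, 14.4 and 14.1 CPM in E3 (1.3, adjusted p = 0.00023). Has2, a hyaluronan synthase, fell from 2.08, 1.37 and 1.67 to 0.640, 0.317 and 0.440 CPM (-1.86, adjusted p = 0.00258). Of 40 genes of autophagy and lysosomes, 7 were higher (17.5%) and 4 lower (10%), near the shares over all genes. There were 12 lower without E3 replicate 3, 2 lower without WT replicate 2 or 3 and 12 higher without E3 replicate 2. Tfeb, a transcription factor of lysosomal genes, rose from 2.38, 1.94 and 2.51 to 5.32, 4.71 and 6.95 CPM (1.31, adjusted p = 0.00072). Its relative Mitf fell from 18.6, 19.2 and 21.4 to 14.4, 9.32 and 8.90 CPM (-0.86, adjusted p = 0.00409). The lines did not overlap for either factor.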
